A study of Mus musculus with 45 samples.

Results

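The genes described here are the nuclear genes for proteins of the mitochondrial ribosome in the dentate gyrus (DG) of mice. They were chosen by symbol, as every gene whose symbol is Mrpl or Mrps followed by a number and at most 1 letter, that stands in 1 row only of both expression tables, with Mrps6 left out. This rule uses no measured value and gave 77 of the 50600 rows, and all 77 passed the filter on low values in every comparison. Of the 77, 51 encode proteins of the large subunit, 25 encode proteins of the small subunit, and Mrps36 carries the symbol although its product is now placed with the oxoglutarate dehydrogenase complex. RNA was sequenced from neural stem cells (NSCs), intermediate progenitor cells (IPCs) and whole DG of untreated mice, and from the same 3 kinds of sample after lateral fluid percussion injury (LFPI), a pressure pulse on the exposed dura, or after sham surgery. The labels give all mice as NestinGFP mice of strain C57Bl6J and of 6 to 9 weeks of age, in which Nestin regulatory elements drive GFP, a reporter that is also on in endothelial cells and oligodendroglia. The study itself names wild-type mice as the source of untreated whole DG, so that whole DG and sorted cells may also differ in genotype. NSCs were live GFP+ GLAST+ cells and IPCs live GFP+ GLAST- cells, both after removal of CD31+, CD45+, O1+ and O4+ cells, with 300 cells sorted into each library. The untreated groups held NSCs and IPCs of the same 3 mice, with 3 technical replicates of each, and whole DG of 3 other mice. In the injury experiment, each library was 1 mouse: 3 LFPI and 2 sham mice for NSCs, 3 and 3 for IPCs, and 3 and 3 other mice for whole DG. The DG on the injured side was taken 4 h after injury, and sham mice had the same anesthesia, craniectomy and attachment without the pulse. Mice are numbered here within each experiment, so that untreated mouse 1 and LFPI mouse 1 are different animals.

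The mitochondrial ribosome translates the few messenger RNAs that are encoded in mitochondrial DNA, all of which are for subunits of the respiratory chain and ATP synthase. Its RNA comes from mitochondrial DNA, whereas all its proteins are encoded in the nucleus, made in the cytosol and imported. Some of these proteins have a counterpart in bacterial ribosomes and others are particular to mitochondria, and the protein genes are spread over the genome. In the adult DG, NSCs give rise to IPCs and then to neurons, and a shift from glycolysis towards oxidative metabolism is known to accompany that course.

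The 77 genes lay on 17 chromosomes, with 11 on chromosome 11 and 8 on chromosome 17. RefSeq promoters, which run from 250 bases before to 50 bases after the start of each gene, were found for 68 of them in the GRCm38.p6 build. In these, 5 short motifs were searched on both strands, and none contains another. The core of ETS sites, CCGGAAG, which is bound by the mitochondrial gene regulator GABP among other ETS factors, was in the promoters of 25 of 68 (36.8%), against 9.12% of all 27025 genes and 11.9% of the protein-coding ones. The YY1 motif AAGATGGC was in 17.6% of the 68 promoters, in 2.88% of all promoters and in 3.22% of the protein-coding ones. The NRF-1 motif GCGCATGC was in 11.8% of the 68, in 2.81% of all promoters and in 3.61% of the protein-coding ones. CCAAT was found in 39.7% and 37.9%, and the E-box CACGTG in 7.35% and 7.24%, so that these motifs were about as frequent in the members as in all promoters. The median GC content was 58.2% over the members' promoters, 52.7% over all genes and 56.3% over protein-coding genes. The median count of the bases CG in a row was 21, 7 and 13 in the same order. The ETS core and the NRF-1 motif each hold a CG, and promoters were not matched for it. These matches describe letters in a window and are not measured binding. The promoters of 4 genes are shown, a pair with the largest rises in untreated sorted cells over whole DG and a pair that fell. Capitals mark the motif matches.
Mrpl34, chr8:71464676-71464975, plus strand, ETS core: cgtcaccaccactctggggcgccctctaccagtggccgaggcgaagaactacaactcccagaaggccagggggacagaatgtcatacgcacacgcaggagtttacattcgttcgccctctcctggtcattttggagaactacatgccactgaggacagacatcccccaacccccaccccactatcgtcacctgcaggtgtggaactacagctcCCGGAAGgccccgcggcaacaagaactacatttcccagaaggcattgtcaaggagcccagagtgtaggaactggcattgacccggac
Mrpl52, chr14:54426659-54426958, plus strand, ETS core on the reverse strand: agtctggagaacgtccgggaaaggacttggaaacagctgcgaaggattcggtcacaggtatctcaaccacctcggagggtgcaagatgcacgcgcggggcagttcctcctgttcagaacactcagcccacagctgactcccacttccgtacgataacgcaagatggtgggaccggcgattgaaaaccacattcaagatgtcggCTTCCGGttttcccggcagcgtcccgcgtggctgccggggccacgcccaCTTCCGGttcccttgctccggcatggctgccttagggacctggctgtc
Mrps26, chr2:130563507-130563806, plus strand, CCAAT and the ETS core, both on the reverse strand: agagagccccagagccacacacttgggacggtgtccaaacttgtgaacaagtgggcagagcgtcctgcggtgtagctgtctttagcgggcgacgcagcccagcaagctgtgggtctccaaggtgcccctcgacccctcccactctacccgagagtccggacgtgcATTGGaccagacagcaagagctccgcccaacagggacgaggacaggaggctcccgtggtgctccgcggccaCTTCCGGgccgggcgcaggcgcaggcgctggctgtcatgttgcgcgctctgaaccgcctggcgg
Mrpl10, chr11:97041332-97041631, plus strand, NRF-1 on the reverse strand: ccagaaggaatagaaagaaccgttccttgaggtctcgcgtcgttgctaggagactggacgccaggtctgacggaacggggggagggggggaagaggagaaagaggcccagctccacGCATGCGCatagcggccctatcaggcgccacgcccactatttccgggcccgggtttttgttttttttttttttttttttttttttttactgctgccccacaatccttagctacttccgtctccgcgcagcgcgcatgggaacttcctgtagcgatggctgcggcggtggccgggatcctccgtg
The ETS core was thus present in genes of both kinds, Mrpl34 and Mrpl52 on one side and Mrps26 on the other, and the promoter of Mrpl10 held the NRF-1 motif and no other of the 5.

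Libraries held between 9292264 and 21598519 reads in genes, and the median of the members' reads in a library was between 260 and 1464. Reads of sorted cells were counted after amplification of a low input, so that their number does not give the error of sampling. Between technical replicates of 1 untreated mouse, the median coefficient of variation over members was 21.7% to 31.8% in sorted cells. Whole DG and sorted cells differed in much besides these genes. The summed level of 6 mature neuron markers was 1494 to 5581 normalized counts in untreated sorted libraries and 144682 to 173990 in untreated whole DG. That of 6 endothelial markers ran the other way, with 98561 to 136728 in untreated NSCs, 23875 to 132306 in IPCs and 1737 to 2462 in whole DG. The summed level of 6 pericyte markers was 36856 to 106758 in the same sorted libraries and 1299 to 1676 in whole DG. That of 4 oligodendrocyte markers was 14.1 to 1696 in untreated sorted libraries and 45645 to 55225 in whole DG, and that of 5 microglia markers 11.4 to 5161 and 5004 to 5604. The summed level of 8 NSC markers was 40467 to 174714 in untreated NSCs and 66330 to 131739 in IPCs. Both overlapped whole DG, at 129393 to 144272. That of 7 IPC and neuroblast markers was 21903 to 48953, 48489 to 76218 and 7071 to 8434 in the same 3 groups. The labels describe the same low-input kit for all libraries, whereas the methods name a different library kit and purified RNA for whole DG, so that cell content, kit, input and genotype cannot be told apart in any comparison of sorted cells with whole DG. In such bulk samples, fewer cells of a type and less RNA per cell cannot be told apart either. Library names of whole DG in the injury experiment carry the code V1N. Those of its sorted libraries and of untreated whole DG mice 4 and 6 carry V1X, and what the code stands for is not stated. Technical replicate 2 of IPC mouse 2 stood apart, with 71 members above 0, where every other library had at least 76.

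Many members share bases with other genes, and the reads were counted without regard to strand. In the GENCODE M21 annotation of the same build, 32 of 77 share exon bases with another gene, 17 of them over at least 10% of their exon length and 3 over at least 50%. The last were Mrpl53, with 88.0% of its exon length inside Gm42688 on the same strand, Mrps25, with 69.8% shared with Nr2c2 on the opposite strand, and Mrps34. Mrps34 shares 63.4% with Mapk8ip3 on the opposite strand and 37.0% with Nme3 on the same strand, and 77.8% in all. Mrpl19 shares 36.0% with Gcfc2, Mrpl43 33.4% with the mitochondrial helicase gene Twnk, Mrps18b 30.5% with an antisense RNA and Mrpl24 26.3% with Rrnad1. Mrps27, Mrps18c, Mrps24, Mrpl10, Mrpl47, Mrpl12, Mrpl46, Mrps7, Mrpl14 and Mrpl18 share between 10.1% and 24.2%, and Mrpl46 and Mrps11 overlap each other by 173 bases. The others share less: Mrpl3, Mrpl9, Mrpl13, Mrpl21, Mrpl27, Mrpl33, Mrpl36, Mrpl44, Mrpl48, Mrpl49, Mrpl51, Mrpl58, Mrps26 and Mrps30. How reads on shared bases were assigned is not stated, so that the levels of these genes are uncertain. Rows named as pseudogenes of members, 5 in all, reached at most 121 normalized counts in a library.

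Levels between genes were compared per kilobase of exon, as normalized counts (reads divided by the size factor of the library) per kb. In untreated mice, the median member had a level of 359 normalized counts per kb in NSCs, against 325 in IPCs and 309 in whole DG. Mrpl28, a large-subunit protein with a bacterial counterpart, was highest in all 3 groups, with mean levels of 1580 in NSCs and 1954 in IPCs, while whole DG had 1318. Over the 3 groups it was followed by Mrpl27 (1336), another protein with a bacterial counterpart, and Mrps21 (1240), the highest of the small-subunit genes, with Mrps12 (984), a protein of the decoding site, next among those. Mrps35 (64.8) was the lowest of the small subunit and Mrps30 (43.2), a mitochondria-specific protein that sits in the large subunit despite its symbol, was the lowest of all. These ranks depend on the length used, which merges all annotated exons of a gene. It was 1380 bases for Mrpl28, 985 for Mrpl27, 739 for Mrps21 and 1040 for Mrps12, but 8631 for Mrps35 and 6666 for Mrps30. The orders of the 77 genes between groups were compared on mean normalized counts that were not divided by length. They kept nearly the same order in untreated NSCs and IPCs (Spearman rho = 0.893 over genes). The order was less similar between NSCs and whole DG (0.720) and between IPCs and whole DG (0.805). In sham mice the order of the normalized counts in sorted cells was again alike (0.853), whereas rho with whole DG was 0.593 for NSCs and 0.566 for IPCs. These coefficients are descriptions over genes of the same libraries, and genes are not independent replicates. In each of the 6 groups of the injury experiment, Mrpl41 had the highest level per kb, from 623 in LFPI whole DG to 2538 in sham IPCs.

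**Figure D1:**
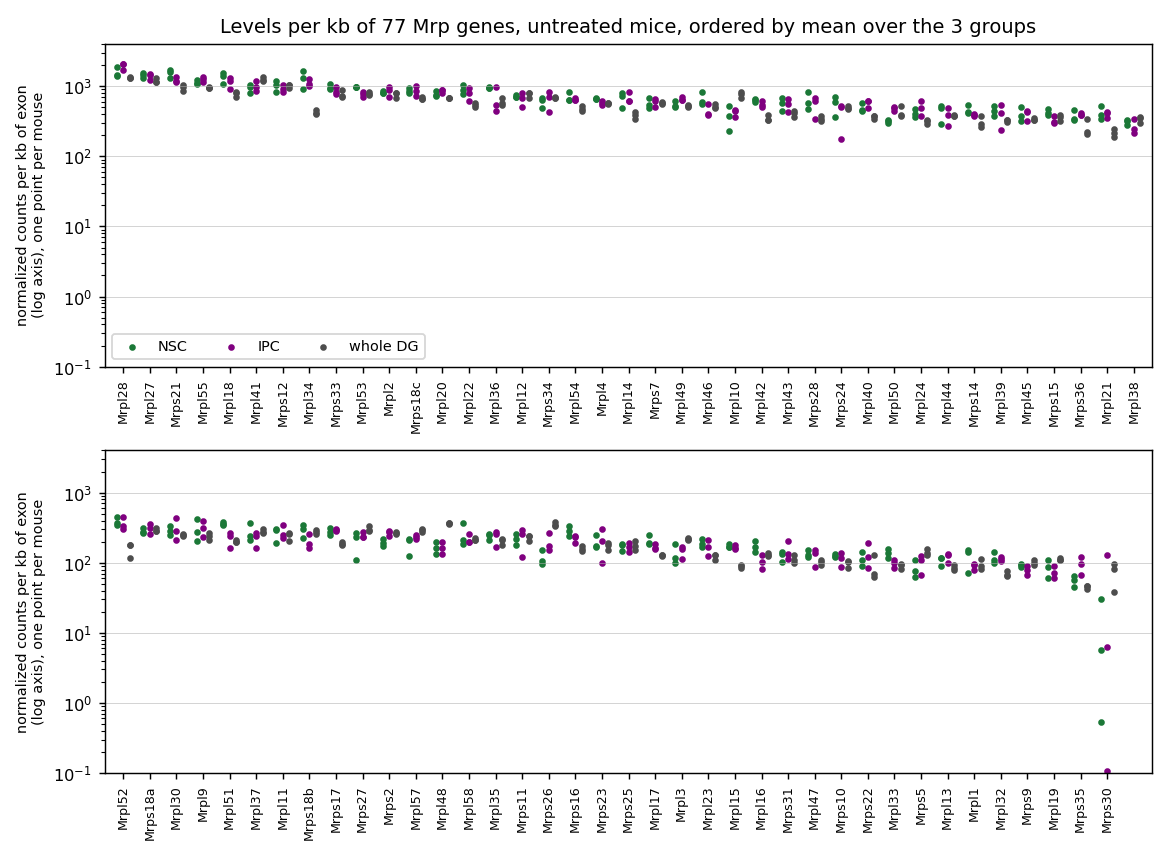
Levels of each of the 77 genes in untreated mice, in normalized counts per kilobase of exon on a log axis, with 1 point for each mouse in NSCs, IPCs and whole DG, and the genes ordered by their mean over the 3 groups. Levels fall gradually from Mrpl28 (1617) to Mrps35 (64.8), and Mrps30 (43.2) comes last with points spread far apart.

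Detection was high. The authors' CLEAR filter, which keeps a value in a library only where reads cover transcripts evenly enough, kept 75 of 77 members in all 9 untreated NSC libraries, 76 in all 3 untreated whole DG libraries and 76 in every sorted library of the injury experiment. In IPCs, 61 of 77 were kept in all 9 libraries, and technical replicate 2 of mouse 2 alone had 62 where the others had at least 74. Over all 21 untreated libraries, 61 were kept in each, and 74 without that replicate. Mrps30 was kept in 4 of 9 untreated NSC and 3 of 9 untreated IPC libraries. Mrpl58, an enzyme that releases stalled peptides and is built into the large subunit, had no CLEAR value in any untreated or sorted library, although its mean levels there ran from 716 to 1105 normalized counts. Why it had none was not tested. No CLEAR filter could be read for whole DG of the injury experiment, where all 6 libraries had a value for every gene. The median spread between mice was smaller over members than over all genes tested, which were not matched to the members in level. The median coefficient of variation between mice was 16.0% over members in untreated NSCs (34.7% over all genes tested), 17.2% in IPCs (40.9%) and 7.33% in whole DG (16.7%). Between technical replicates of 1 mouse, the medians were 21.7% to 26.9% in NSCs and 21.8% to 31.8% in IPCs. Mrps30 had the widest spread between mice in each untreated group, at 130% in NSCs and 161% in IPCs, while whole DG had 42.2%.

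Summed over the 77 genes, mitochondrial ribosomal proteins took a larger share of the sorted libraries than of whole DG. In untreated mice the share of all normalized counts was 0.665% ± 0.0223 in NSCs and 0.643% ± 0.0323 in IPCs, while whole DG had 0.361% ± 0.00312 (mean ± SD, n = 3 mice each). The groups of mice did not overlap between sorted cells and whole DG, while NSCs (0.639 to 0.679%) and IPCs (0.608 to 0.672%) did. In sham mice the share was 0.481% ± 0.0228 in NSCs (n = 2), 0.571% ± 0.0688 in IPCs (n = 3) and 0.240% ± 0.00443 in whole DG (n = 3). After LFPI it was 0.561% ± 0.0592, 0.635% ± 0.0435 and 0.233% ± 0.0137 (n = 3 each). LFPI and sham mice overlapped in the share in all 3 kinds of sample. The NSCs of 1 LFPI mouse fell between the pair of sham mice, at 0.465% and 0.498%. The shares depend on the library total: whole DG also had larger normalized totals, and in untreated mice the summed normalized counts themselves differed less, at 71280 ± 3100 for NSCs, 69118 ± 1230 for IPCs and 63072 ± 158 for whole DG. In the injury experiment, the summed counts of LFPI NSCs (62823 to 76487) all lay above those of sham NSCs (60878 to 61012, n = 2). Those of IPCs and of whole DG overlapped between LFPI and sham mice. The differences in these sums were not tested. The 2 experiments were normalized separately, so that levels are not compared between them.

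**Figure D2:**
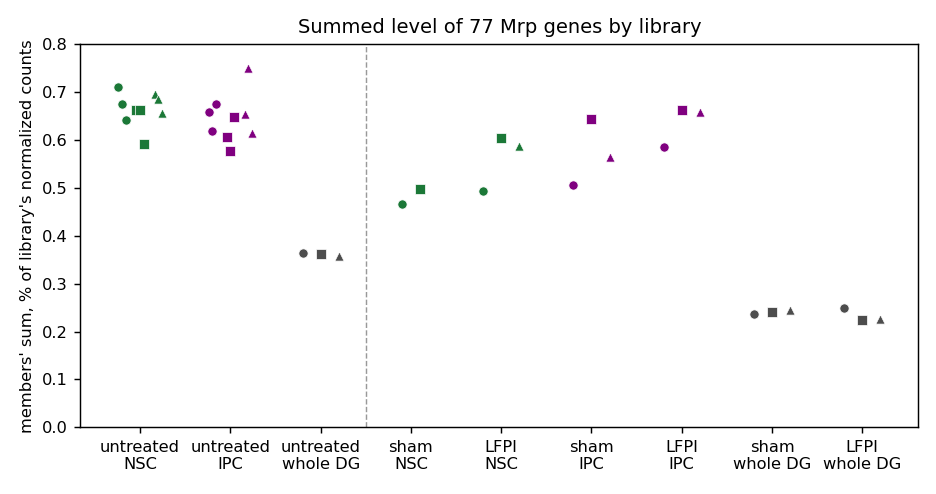
Share of the 77 genes in all normalized counts of each library, in percent, with 1 point for each library, the groups on the x axis and the point shapes for the mice of a group. Untreated and injury-experiment sorted libraries lie above whole DG of the same experiment, and LFPI and sham libraries overlap.

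The first question was how these genes differed between sorted progenitors and the tissue around them. In untreated mice most of the differences of members were small. In NSCs, 18 of 77 (23.4%) were higher than in whole DG and 8 (10.4%) lower at an adjusted p under 0.05 (limma on log2(normalized count + 1), Benjamini-Hochberg over 17638 genes), where 16.1% of all genes tested were higher and 33.3% lower. The median log2 fold change was 0.25 over members and -0.64 over all genes. In IPCs, 17 of 77 (22.1%) were higher and 3 (3.9%) lower, against 15% and 33.9% of all genes, with medians of 0.17 and -0.68. The sign was positive for 55 members (71.4%) in NSCs and 49 (63.6%) in IPCs, against 36.7% and 35.7% of all genes. Mice did not overlap for 35 members that were higher (45.5%, against 22.9%) and 12 that were lower (15.6%, against 43.8%) in NSCs, and for 25 (32.5%, against 20.7%) and 11 (14.3%, against 42.5%) in IPCs. An added minimum of 1 for the log2 fold change left NSCs with 2 members higher and 3 lower (12.4% and 30.7% of all genes) and IPCs with 3 and 1 (11.4% and 31.1%). The call turned on the scale. With every library brought to the same total, which moved the median of all genes to 0.04 in NSCs and -0.01 in IPCs, 60 members were higher and 1 lower in NSCs (27.7% and 22.9% of all genes), and 53 were higher and 0 lower in IPCs (27.4% and 22.6%). With edgeR on the recovered reads, NSCs had 47 members higher and 2 lower (22.9% and 21.2% of all genes), and IPCs 48 and 1 (22.5% and 20.7%). DESeq2 on the same reads gave 43 and 2 in NSCs (23.6% and 26.4%), and 43 and 1 in IPCs (23% and 25.8%). A CLEAR value in each of the 21 libraries was present for 4055 genes, 61 members among them. Of these 61, 29.5% were higher and 13.1% lower in NSCs, against 35.2% and 26.7% of the 4055, and 29.5% and 4.92% in IPCs, against 35.3% and 23.9%. With both that restriction and equal totals, chosen after seeing the data, 80.3% of the 61 were higher in NSCs against 58.8% of all such genes, and 78.7% against 61% in IPCs, with 3.28% (against 14.4%) and 1.64% (against 11.4%) lower. Without technical replicate 2 of IPC mouse 2, 21 were higher and 6 lower in IPCs (15.6% and 35.3% of all genes).

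Most of the rises were of large-subunit genes, which are also most of the members. In untreated NSCs 14 of 51 large-subunit genes rose and 5 fell relative to whole DG, and 4 of 25 small-subunit genes rose and 3 fell. In untreated IPCs the counts were 14 and 2 of 51, and 2 and 1 of 25. Mrpl34, a large-subunit protein with a bacterial counterpart, had 784, 986 and 555 normalized counts in the NSCs of the 3 mice, 657, 620 and 781 in their IPCs, and 277, 255 and 240.5 in whole DG of the 3 other mice. Every sorted sample was above every whole DG sample. The log2 fold change was 1.55 ± 0.24 (SE) in NSCs and 1.41 ± 0.24 in IPCs (limma adjusted p = 0.00074 and 0.0014), the largest rise of a member in both. Mrpl52, a mitochondria-specific protein of the large subunit, had 379, 494 and 406 in NSCs and 503, 337 and 373 in IPCs, while whole DG had 199, 131 and 199, again without overlap. It rose by 1.28 ± 0.27 and 1.196 ± 0.27 (adjusted p = 0.0044 and 0.0066, limma). Mrpl15, with a bacterial counterpart, was the least variable of the leading members, at 1414, 1440 and 1545 in NSCs and 1519, 1374 and 1338 in IPCs, while whole DG had 725, 764 and 781. Its sorted samples were all well above whole DG, by 0.95 ± 0.12 and 0.90 ± 0.12 (adjusted p = 0.00026 and 0.00041, limma). Mrpl21, also with a bacterial counterpart, had 793, 689 and 1049, then 823, 868 and 704, then 437, 383 and 493, and rose by 0.93 ± 0.20 and 0.87 ± 0.20. Mrps35, a mitochondria-specific protein of the small subunit, was higher in IPCs alone by this test. NSCs had 552, 391 and 489, IPCs 831, 1026 and 576, and whole DG 404, 401 and 364. The IPCs were above whole DG in every mouse (1.02 ± 0.25, adjusted p = 0.0089, limma), while NSCs and whole DG overlapped (0.28 ± 0.25). The difference between NSCs and IPCs was itself not past the threshold for Mrps35 (-0.74 ± 0.25, adjusted p = 0.18, limma).

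Fewer members were lower in sorted cells. Mrps26, a mitochondria-specific protein of the small subunit, had 420, 465 and 653 normalized counts in NSCs and 655, 1165 and 756 in IPCs, while whole DG had 1506, 1477 and 1658. All sorted samples lay below whole DG, with log2 fold changes of -1.62 ± 0.25 and -0.89 ± 0.25 (adjusted p = 0.00079 and 0.017, limma). Mrpl48, a mitochondria-specific protein of the large subunit, had 1072, 1318 and 1595 in NSCs and 1089, 1328 and 1616 in IPCs, while whole DG had 2998, 2949 and 3035. It fell by 1.19 ± 0.19 and by 1.17 ± 0.19 on the log2 scale (adjusted p = 0.00083 and 0.00099, limma), also without overlap. Mrpl10, which anchors the stalk that recruits translation factors, had 884, 647 and 387 in NSCs and 616, 771 and 761 in IPCs, while whole DG had 1416, 1341 and 1173. It fell by 1.11 ± 0.28 and by 0.87 ± 0.28 (adjusted p = 0.011 and 0.031, limma). Mrps5, a small-subunit protein with a bacterial counterpart, had 723, 412.5 and 500.1 in NSCs and 910, 839 and 1026 in whole DG, and its fall by 0.80 ± 0.29 was close to the threshold (adjusted p = 0.046, limma). With equal library totals or with edgeR, the falls of Mrpl10 in both populations, of Mrps5 in NSCs and of Mrps26 in IPCs no longer passed, and the log2 fold change of Mrps26 in IPCs was -0.19 with equal totals. The fall of Mrpl48 no longer passed with equal totals (-0.49 in NSCs and -0.47 in IPCs). The fall of Mrps26 in NSCs was the only one of the 8 falls there that was called under each of the 16 settings of scale, filter, test and mice that were run. Single mice moved these counts: the falls in NSCs were 3 without any 1 of the whole DG mice and 4 without mouse 3, and the rises in IPCs were 10 without whole DG mouse 6 and 11 without mouse 4.

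The same comparison could be made in sham mice, which are other animals and a separately normalized table. Here 40 of 77 members (51.9%) were higher and 0 lower in NSCs than in whole DG, against 17.3% and 25.2% of the 18059 genes tested. At an unadjusted p under 0.05, 46 differed in either direction (59.7%, against 51.1% of all genes). DESeq2 called 1 lower and edgeR 0 (27.7% and 19.8% of all genes). In IPCs 51 (66.2%) were higher and 1 (1.3%) lower, against 18.9% and 29.2% (limma). The median log2 fold change of members was 0.82 in NSCs and 0.97 in IPCs, and that of all genes -0.35 and -0.50. The sign was positive for 63 members (81.8%) in NSCs and 67 (87%) in IPCs, against 43.7% and 41.6% of all genes. Equal library totals gave NSCs 49 members higher and 0 lower (20.6% and 22% of all genes) and IPCs 62 and 0 (23.3% and 25.3%). CLEAR values in each sham sorted library were held by 9719 genes, 76 members among them, and of these members 50% were higher in NSCs and 65.8% in IPCs, against 28.5% and 30.8% of the 9719. Of the large subunit, 25 of 51 rose in NSCs and 35 of 51 in IPCs, and of the small subunit 14 and 15 of 25. The count for NSCs rests on 2 sham mice and on each whole DG library: it was 22 without sham whole DG mouse 10 or 11 and 23 without mouse 12.

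Mrpl28, the gene with the highest level per kb in untreated mice, was among the 4 largest rises in both sham populations. It had 2418 and 1423 normalized counts in sham NSCs, 2698, 3084 and 2059 in sham IPCs and 532, 486.5 and 528 in sham whole DG. The sorted samples all lay far above whole DG (1.85 ± 0.27 and 2.32 ± 0.24, adjusted p = 0.0017 and 0.0003, limma). In untreated mice it had 2601, 1958 and 1981 in NSCs and 2346, 2840 and 2902 in IPCs, while whole DG had 1789, 1779 and 1889, with smaller differences (0.25 ± 0.14, adjusted p = 0.18, and 0.56 ± 0.14, adjusted p = 0.012, limma). Mrpl41, a mitochondria-specific protein of the large subunit, was higher in sham sorted cells, with 1689 and 1461 in NSCs and 2620, 2586 and 1555 in IPCs, while whole DG had 545, 545 and 668 (1.43 ± 0.27 and 1.91 ± 0.24, adjusted p = 0.0048 and 0.00065, limma). In untreated mice its sorted samples, at 720 to 1046, were all below whole DG, at 1064 to 1205, and the difference did not pass (-0.41 and -0.33, adjusted p = 0.075 and 0.14, limma). Mrps28, a small-subunit protein, had the largest log2 fold change in sham NSCs at 2.21 ± 0.62 (adjusted p = 0.025, limma), from 468 and 593 in NSCs and 125, 106 and 111 in whole DG. In sham IPCs it had 625, 161 and 675, so that 1 mouse was near whole DG. The rise of Mrps28 in NSCs no longer passed without either sham NSC mouse or without any 1 of the whole DG mice. Mrpl42, a mitochondria-specific protein, had 1469 and 1297 in NSCs and 1771, 1939 and 797 in IPCs, while whole DG had 393, 349 and 451, and the rises were 1.80 ± 0.39 and 1.82 ± 0.34. Mrpl17, with a bacterial counterpart, had 1611 and 1414 in sham NSCs and 531, 430.3 and 441 in whole DG (1.70 ± 0.20, adjusted p = 0.00067, limma). Mrpl14, also with a bacterial counterpart, had 658, 724 and 537 in sham IPCs and 129, 171 and 166 in whole DG (2.04 ± 0.24, adjusted p = 0.00052, limma). Mrpl34 was high again, at 771 and 629.5 in NSCs and 775, 1323 and 742 in IPCs, while whole DG had 221, 222 and 216 (1.66 ± 0.30 and 2.05 ± 0.27). Mrps22, a mitochondria-specific protein of the small subunit, was the one member lower in sham IPCs, with 199, 139 and 155 against 343, 337 and 322 in whole DG (-1.04 ± 0.28, adjusted p = 0.02, limma). That fall was lost without any 1 of the whole DG mice and with equal library totals (-0.72).

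**Figure D3:**
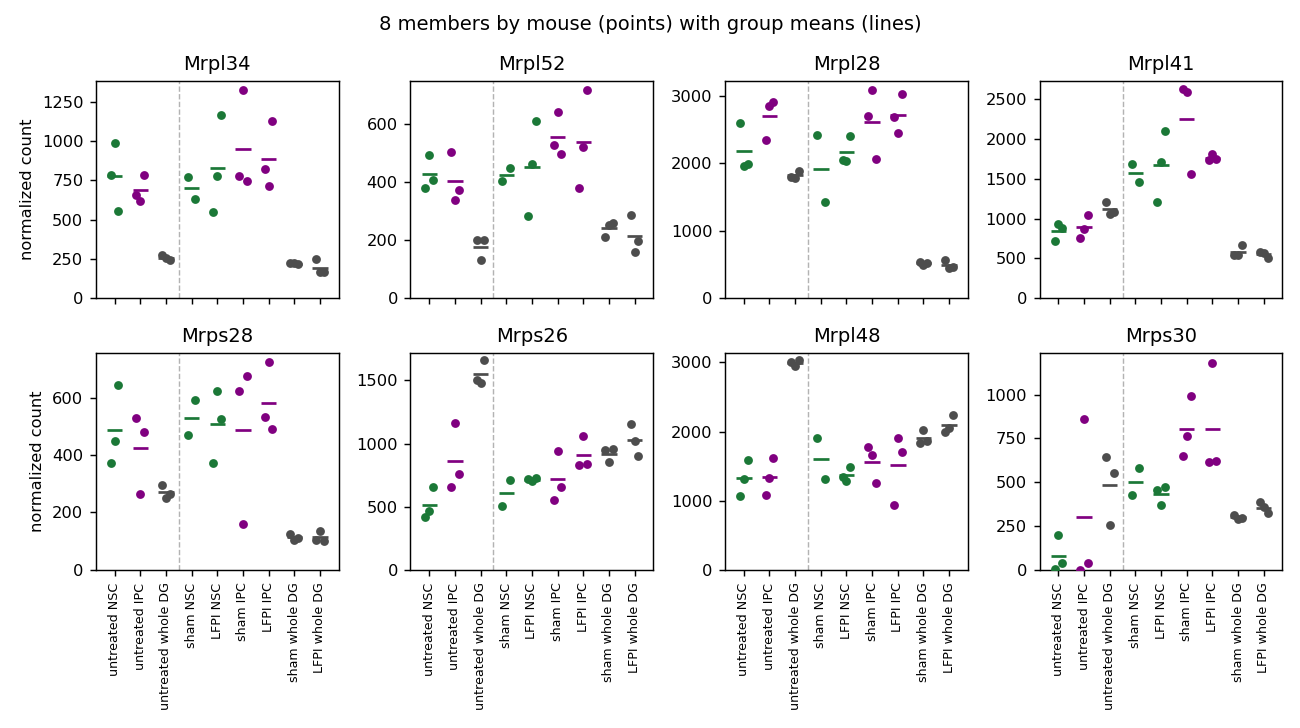
Normalized counts of 8 of the genes by mouse in the 9 groups, 1 panel for each gene, with points for mice and a line at each group mean. Mrpl34 and Mrpl52 are higher in sorted cells than in whole DG in both experiments, Mrpl41 in the injury experiment only, and Mrps26 and Mrpl48 are lower in untreated sorted cells, while Mrps30 spans 0.722 to 859 between untreated IPC mice.

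There were 8 genes called higher in all 4 comparisons of sorted cells with whole DG, namely Mrpl14, Mrpl15, Mrpl18, Mrpl21, Mrpl34, Mrpl42, Mrpl52 and Mrps17. NSCs and IPCs of an experiment share their whole DG samples, whereas the experiments share no animal. Of the 18 genes higher in untreated NSCs, 17 (94.4%) were also higher in sham NSCs, which is 42.5% of the 40 higher there. Of the 17 higher in untreated IPCs, 15 (88.2%) were also higher in sham IPCs, 29.4% of the 51. No member was called higher in one experiment and lower in the other. None of these overlaps was computed over all genes, so that they are not shown to be particular to the members. A group of 24 members was called higher in none of the 4, among them Mrpl10, Mrpl48, Mrps5 and Mrps26. The falls were not called again in sham mice: Mrps26 had 505 and 712 in sham NSCs, 555, 939 and 654 in sham IPCs and 951, 853 and 958 in sham whole DG (-0.62 ± 0.28, adjusted p = 0.12, and -0.39 ± 0.25, adjusted p = 0.23, limma). Mrpl48 had 1901 and 1313, then 1778, 1656 and 1262, then 1830, 2026 and 1868 in sham samples (-0.27 ± 0.22 and -0.30 ± 0.20). Whether the differences changed between the experiments was not tested, since the tables were normalized separately. The mature neuron markers moved with these comparisons in both experiments (3033 to 4045 in sham sorted libraries and 150149 to 167614 in sham whole DG), as did oligodendrocyte markers (454 to 1310 and 24708 to 27128). Endothelial (16428 to 75053 and 1375 to 3177) and pericyte markers (17522 to 62805 and 1351 to 2186) were higher in sham sorted libraries. NSC markers were also higher there, at 420851 to 708286 in NSCs and 298750 to 777672 in IPCs, while whole DG had 58123 to 74156. In untreated mice, NSC markers overlapped between sorted cells and whole DG. The summed level of 4 astrocyte markers was 2967 to 14278 in untreated sorted libraries and 22855 to 23564 in untreated whole DG. In sham mice it was 39073 to 76319 in NSCs, 28708 to 84512 in IPCs and 34607 to 39123 in whole DG, which overlapped. The part of these markers in the members' differences was not tested.

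**Figure D4:**
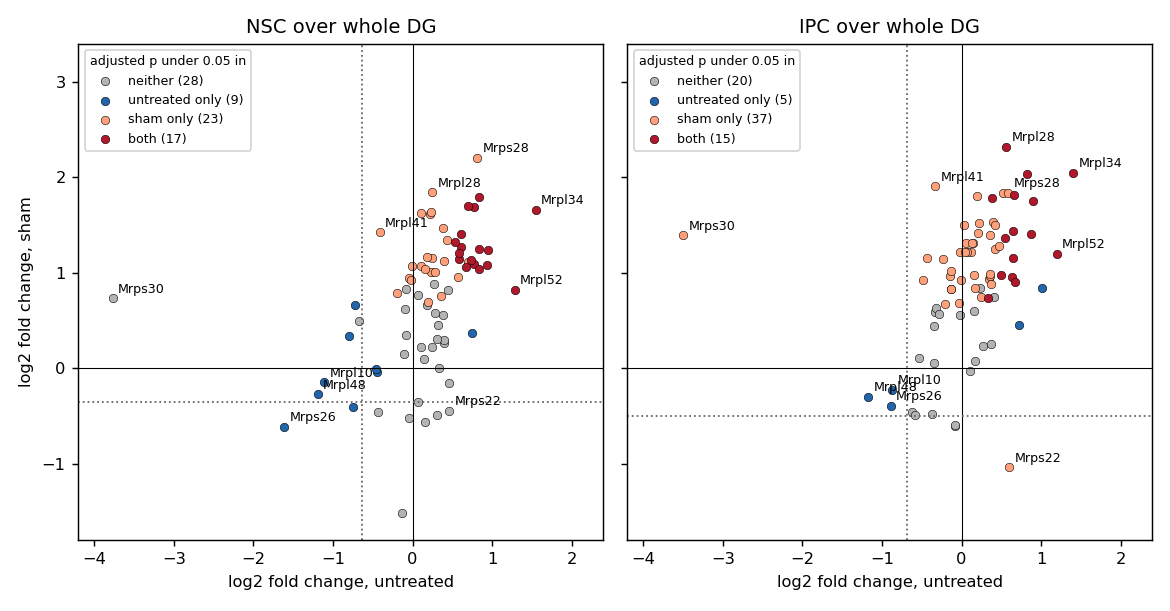
Log2 fold change of each of the 77 genes over whole DG in untreated mice (x axis) and in sham mice (y axis), for NSCs and for IPCs, coloured by which comparison called it, with dotted lines at the medians of all genes tested (-0.64 and -0.35 for NSCs, -0.68 and -0.50 for IPCs). Most genes lie above both dotted lines. The medians of the members were 0.82 and 0.97 in sham mice and 0.25 and 0.17 in untreated mice, and the difference between the experiments was not tested.

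Several members have roles or paralogs of their own. Mrpl12, the stalk protein that is also known to bind the mitochondrial RNA polymerase, did not differ detectably from whole DG in untreated mice (-0.09 ± 0.18 in NSCs and -0.21 ± 0.18 in IPCs) and was higher in sham IPCs (0.67 ± 0.20, adjusted p = 0.026, limma). The 3 Mrps18 paralogs are relatives of 1 bacterial protein. Mrps18a, which sits in the large subunit, was higher in sham NSCs (0.95 ± 0.32) and IPCs (1.22 ± 0.28) and at -0.05 and 0.07 in untreated mice. Mrps18b was higher in sham IPCs (0.93 ± 0.26, adjusted p = 0.023, limma), with -0.49 ± 0.24 in untreated IPCs, where it did not pass. Mrps18c was higher in sham NSCs (1.12 ± 0.25) and IPCs (0.88 ± 0.22), with 0.39 and 0.38 in untreated cells (adjusted p = 0.071 and 0.082, limma). Mrps36 was higher in untreated IPCs (0.68 ± 0.25, adjusted p = 0.048) and in both sham populations (0.95 ± 0.28 and 0.90 ± 0.25, adjusted p = 0.03 and 0.021, limma). Mrpl58 was higher in both sham populations (1.16 ± 0.31 and 0.92 ± 0.28) and at 0.18 and -0.00 in untreated mice. Mrps30 was erratic in untreated sorted cells, with 3.59, 200 and 37.9 normalized counts in NSCs and 0.722, 859 and 41.8 in IPCs, while whole DG had 644, 254 and 551. The value of IPC mouse 2 came from 1 technical replicate with 2564, where no other IPC library exceeded 50.8. The differences from whole DG did not pass in untreated mice (-3.77 ± 2.11 and -3.50 ± 2.11). In the injury experiment Mrps30 was present in every sorted sample, between 369 and 1180, and sham IPCs were above whole DG (1.40 ± 0.24, adjusted p = 0.0027, limma).

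The second question was whether NSCs and IPCs differed from each other. In untreated mice, 0 of 77 members passed in either direction (limma), where 1.24% of the 17638 genes were higher in NSCs and 0.686% lower. At an unadjusted p under 0.05, 11 members differed (14.3%, against 17.4% of all genes). edgeR called 0 (0.998% of all genes higher and 0.556% lower), and DESeq2 called 1 higher and 2 lower (4.87% and 3.79% of all genes). None of the 61 members with CLEAR values throughout was called (3.3% and 3.43% of such genes), nor any of the 77 without technical replicate 2 of IPC mouse 2 (2.42% and 1.12%). Members had a median log2 fold change of 0.06 for NSCs over IPCs, and all genes one of 0.00, and 46 members were above 0. Groups of mice did not overlap for 8 members higher in NSCs (10.4%, against 9.52% of all genes) and for 6 lower (7.79%, against 7.9%), about the share of all genes. The smallest p belonged to Mrpl50, a mitochondria-specific protein, with 629, 693 and 667 in NSCs and 1080, 1039 and 934 in the IPCs of the same mice (-0.62 ± 0.16, adjusted p = 0.11, limma). Mrpl51, also mitochondria-specific, had 1426, 1400 and 1531 in NSCs and 1088, 666 and 973 in IPCs (0.70 ± 0.19, adjusted p = 0.11, limma), and it was listed at 0 in technical replicate 2 of IPC mouse 2. Mrpl16, with a bacterial counterpart, had 652, 458 and 525 in NSCs and 409, 261 and 329 in IPCs (0.72 ± 0.23, adjusted p = 0.17, limma). NSCs were lower than IPCs in all 3 mice for Mrpl50, and higher in all 3 for Mrpl51 and Mrpl16. With the mouse as a block, 0 members and 0 of all genes passed.

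In the injury experiment, with the difference averaged over sham and LFPI mice, again 0 members and 0 of 17230 genes passed (0%, limma). At an unadjusted p under 0.05, 6 members (7.79%) and 5.65% of all genes differed, and edgeR and DESeq2 called 0 members, where DESeq2 called 0.58% of all genes higher and 0.482% lower. The median was -0.16 over members and 0.09 over all genes, and 21 of 77 members (27.3%) were above 0, against 56.6% of all genes. Mrpl13, a protein with a bacterial counterpart, had 321 and 496 in sham NSCs, 759, 773 and 824 in sham IPCs, 813, 704 and 941 in LFPI NSCs, and 1031, 2063 and 1094 in LFPI IPCs. NSCs were below IPCs within each treatment (-0.84 ± 0.24, adjusted p = 0.76, limma). Mrps30 was lower in every NSC than in every IPC sample of the experiment (-0.75 ± 0.25, adjusted p = 0.83), with 426 and 582 in sham NSCs, 455, 369 and 472 in LFPI NSCs, 649, 762 and 994 in sham IPCs, and 617, 1180 and 621 in LFPI IPCs. No other member was lower without overlap (1.3%, against 0.221% of all genes), and 0 were higher (0.273% of all genes). Mrps23, a mitochondria-specific protein of the small subunit, had -0.78 ± 0.31.

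The third question was how LFPI changed these genes within 4 h. In NSCs, 0 of 77 members and 0 of 17274 genes passed (0%, limma), with 3 members (3.9%) and 4.3% of all genes at an unadjusted p under 0.05. edgeR and DESeq2 called 0 members, and DESeq2 called 1.23% of all genes higher and 0.237% lower. The log2 fold change of LFPI over sham was above 0 for 61 of 77 members (79.2%), against 48.5% of all genes, with medians of 0.25 and -0.02. LFPI and sham mice did not overlap for 18 members that were higher (23.4%, against 8.87% of all genes) and 4 that were lower (5.19%, against 10.2%). With equal library totals the median of members was 0.23, and with the 9790 genes kept by CLEAR throughout the NSC libraries of the experiment it was 0.25 over members and -0.00 over all. Leaving out 1 mouse at a time gave medians of 0.16 to 0.35. The median was 0.28 over large-subunit genes, with 41 of 51 above 0, and 0.21 over small-subunit genes, with 19 of 25 above 0. Mrpl13 had 813, 704 and 941 in LFPI NSCs and 321 and 496 in sham NSCs (1.03 ± 0.36, adjusted p = 0.94, limma). Mrpl43, a mitochondria-specific protein, had 752, 791 and 983 against 545 and 418 (0.81 ± 0.33). Mrps9, with a bacterial counterpart, had 293, 609 and 546 against 272 and 103 (1.46 ± 0.60). The LFPI mice lay above the sham mice in all 3 genes. LFPI and sham sorted libraries were run in different lanes, and LFPI NSC libraries were deeper (15367572 to 17784627 reads against 11925924 and 13081689), so that lane, depth and treatment cannot be told apart here. Of the marker lists, fold changes are given here for 3 only, and no rule fixed which. NSC markers had a median log2 fold change of 0.25 (6 of 8 above 0), endothelial markers one of -0.32 (2 of 6) and mature neuron markers one of -0.76 (2 of 6). The summed level of microglia markers was 63.3 to 413 in LFPI and 349 to 563 in sham NSCs. The sums of every marker list overlapped between LFPI and sham NSCs. The part of the markers in the members' values was not tested.

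In IPCs, 0 members and 0 of 16970 genes passed (0%, limma), with 2 members (2.6%) and 4.43% of all genes at an unadjusted p under 0.05. edgeR and DESeq2 called 0 members, and DESeq2 called 0.153% of all genes higher and 0.466% lower. The log2 fold change was above 0 for 53 members (68.8%, against 47.7% of all genes), with medians of 0.21 over members and -0.04 over all genes. Mice did not overlap for 8 members that were higher (10.4%, against 4.68%) and 1 that was lower (1.3%, against 5.13%). Small-subunit genes had the larger median in IPCs, 0.33 with 21 of 25 above 0, against 0.11 with 31 of 51 for the large subunit. Mrps18c had 872, 1095 and 1124 in LFPI and 666, 743 and 505 in sham IPCs (0.70 ± 0.29, adjusted p = 0.92, limma). Mrps25, of which 69.8% of the exon length is shared with Nr2c2, had 1474, 1668 and 1443 against 920, 749 and 1316 (0.66 ± 0.28). The mice did not overlap for these genes. Mrpl1, with a bacterial counterpart, had 806, 777 and 301 against 241, 68.3 and 330, which do overlap (1.70 ± 0.71). The IPC libraries also differed in lane and in depth between LFPI (16351321 to 21598519 reads) and sham (9604877 to 12804286). Fold changes are again given for some of the marker lists only, and not for the same ones as in NSCs. Pericyte markers had a median log2 fold change of 0.46 (6 of 6 above 0), endothelial markers 0.23 (4 of 6) and IPC and neuroblast markers -0.50 (1 of 7). The summed levels of every marker list overlapped between LFPI and sham IPCs. The part of the markers in the members' values was not tested either.

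In whole DG, 0 members and 0 of 17434 genes passed (0%, limma), with 8 members (10.4%) and 19.9% of all genes at an unadjusted p under 0.05, and edgeR and DESeq2 called 0 members, where DESeq2 called 2.4% of all genes higher and 1.51% lower. Medians were -0.04 over members and -0.04 over all genes, and 29 members (37.7%) were above 0, against 45.3% of all genes. Mice did not overlap for 9 members that were higher (11.7%, against 9.03%) and 5 that were lower (6.49%, against 13.9%). Mrpl42 had 329, 280 and 263 in LFPI and 393, 349 and 451 in sham whole DG (-0.45 ± 0.15, adjusted p = 0.17, limma). Mrpl58 had 400.0, 339 and 263 against 441, 478 and 455 (-0.48 ± 0.16), and Mrpl17 had 610, 583 and 596 against 531, 430.3 and 441 (0.36 ± 0.12). LFPI and sham mice were apart in all 3, and all whole DG libraries of the experiment were run in 1 lane.

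The responses of NSCs and IPCs were set against each other with an interaction term. It passed for 0 members and 0 of 17230 genes (0%, limma), with 2 members (2.6%) and 3.28% of all genes at an unadjusted p under 0.05, and edgeR and DESeq2 called 0 members, where DESeq2 called 0.575% of all genes higher and 0.18% lower. The median was 0.01 over members and 0.03 over all genes, with 40 members (51.9%) and 51.4% of all genes above 0. Mrpl49, a mitochondria-specific protein, had the smallest p, with 763, 702 and 637 in LFPI and 644 and 318 in sham NSCs, and 448, 851 and 947 in LFPI and 979, 1174 and 1164 in sham IPCs (1.25 ± 0.54, adjusted p = 1, limma). Mrpl44, a mitochondria-specific protein related to ribonuclease III, had an interaction of 1.78 ± 0.77, and Mrpl43 one of 1.02 ± 0.51.

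**Figure D5:**
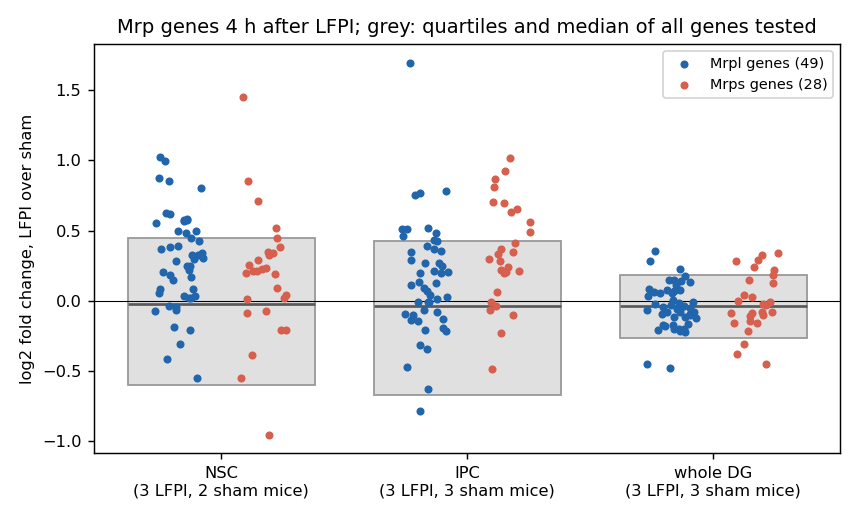
Log2 fold change of LFPI over sham for Mrpl genes and Mrps genes in NSCs, IPCs and whole DG, with 1 point for each gene and grey bands for the quartiles and median of all genes tested. The points sit mostly above 0 in NSCs (61 of 77) and IPCs (53 of 77) and around 0 in whole DG (29 of 77 above), and none passes the threshold.

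Other genes of mitochondrial translation were less uniform against whole DG. Chchd1, a small-subunit protein whose symbol is outside the pattern, was higher in all 4 comparisons (1.06 and 1.07 in untreated NSCs and IPCs, 1.24 and 1.11 in sham, limma), with 950 ± 157, 946 ± 40.3 and 451 ± 17.9 normalized counts in untreated NSCs, IPCs and whole DG (mean ± SD, n = 3). Of the 5 such subunits, 1 was higher and 1 lower in untreated NSCs, and 3 were higher in each sham population. Mitochondrial aminoacyl-tRNA synthetases, which charge the tRNAs, held no rise in untreated mice: of 17, NSCs had 0 higher and 5 lower and IPCs likewise 0 and 5, shares of falls near those over all genes (33.3% and 33.9%, with 16.1% and 15% higher). In sham mice NSCs had 3 higher and 2 lower, and IPCs 5 and 3, against 17.3% and 25.2%, and 18.9% and 29.2%, of all genes. Vars2, for valine, was lower in all 4 (-6.10, -3.41, -1.86 and -3.13). Of 22 genes for assembly and rRNA modification, 2 rose and 6 fell in untreated NSCs, 2 and 3 in IPCs, 4 and 0 in sham NSCs and 5 and 3 in sham IPCs, so that the share of falls did not exceed that over all genes (33.3%, 33.9%, 25.2% and 29.2%). Mpv17l2, an assembly factor, rose by 3.11 and 3.17 in sham cells, and the helicase gene Dhx30 fell by 2.68 and 2.34 in untreated ones. Of 11 translation factors, 1 rose in untreated NSCs, 2 fell in IPCs and 2 rose in each sham population, where 17.3% and 18.9% of all genes were higher. Of 6 genes for mitochondrial transcription, Polrmt, the RNA polymerase, was lower in untreated NSCs and IPCs (-2.82 and -2.41), and Mterf1a was higher (1.41 and 1.82). None of these genes passed between NSCs and IPCs or between LFPI and sham (limma).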

How the data were processed

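Per the methods, reads were aligned to the mouse genome with HISAT2 and counted per gene without strand with featureCounts, after removal of ribosomal and mitochondrial reads. The methods give a mouse build, while the submitters' processing notes name the human build GRCh38, and the gene symbols in the tables are those of mouse. The deposited values are signal in the form of normalized counts: the authors scaled gene counts with DESeq2 size factors, separately for each experiment, and a second table of each experiment keeps the values that pass their CLEAR filter. Dividing by the smallest step of each library gave whole reads for 100% of values (tolerance 0.05 reads), and reads in genes ran from 9292264 to 21598519 per library.

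The members and lists were chosen with earlier results of these data known. Technical replicates were averaged to 1 value per mouse. Genes whose mean reached 10 normalized counts were tested on log2(normalized count + 1), pseudocount 1, with limma 3.58.1 with a trend in R 4.3.3, two-sided, Benjamini-Hochberg over all genes tested, threshold 0.05. Where a fold change is given, it is on that scale. Groups came from the labels, and p-values measure the spread between mice. In the injury experiment, with 1 library per mouse, that spread includes the technical one. The untreated fits and the sham fits used 1 spread for sorted cells and whole DG, although whole DG varied less between mice. Alternatives were pseudocounts of 0.5 and 10, no filter, a CLEAR value in every library, no trend, equal library totals, leaving out each mouse, edgeR 4.0.16 and DESeq2 1.42.0 on recovered reads, and the mouse as a block. NSC and IPC samples of 1 number come from 1 mouse, per the labels, and their deviations from the group means correlated by 0.0229 to 0.103. Steps were tested on simulated data. The genes given with values were, in each comparison, the 4 largest rises and the 4 largest falls among called members whose groups do not overlap, or the 3 smallest p where fewer than 3 passed, the 2 highest and the 1 lowest per kb of each subunit, the stalk proteins, the Mrps18 paralogs, Mrps36, Mrpl58, overlapping genes, and the 2 largest changes of each other list. Genes outside that rule (Mrps17, Mrpl18 and the other shared calls) were named after their values were seen. A column of per-sample values, 1 in all, matched no label and was not used. Exon lengths and overlaps are from GENCODE M21, a later release than the one the authors counted on, and the promoters of 68 members from RefSeq, build GRCm38.p6.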

Additional observations from a re-analysis of the deposited data

Results flagged for a closer look

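Some single libraries stood far from the other 8 of their untreated group. With 74 such groups examined for the genes given with values, chance alone sets apart about 1 in 20. Technical replicate 2 of IPC mouse 2 had 62 members with a CLEAR value, where the next lowest library had 74, and 71 members above 0, where the next had 76. The same replicate was extreme for 6 genes. It had 1520 normalized counts of Mrpl21 (next library 963), 3564 of Mrpl42 (next 2232) and 2564 of Mrps30 (next 50.8) at the high end. At the low end it had 242 of Mrpl34 (next 595), 0 of Mrpl51 (next 826) and 0 of Mrps28 (next 334). Without it, 21 members were higher and 6 lower in untreated IPCs than in whole DG, in place of 17 and 3.

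In NSCs, technical replicate 3 of mouse 1 had 1040 normalized counts of Mrps5 (next 606). Technical replicate 3 of mouse 3 had 609 of Mrps23 (next 360) and 854 of Mrps26 (next 569), and technical replicate 2 of mouse 2 had 390 of Mrps30 (next 159). In IPCs, technical replicate 1 of mouse 1 had 1565 of Mrps18c (next 1068).

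For some members every sorted sample lay on one side of whole DG in untreated mice and on the other side in sham mice. The difference between the experiments was not tested. In NSCs these were Mrpl41, at a log2 fold change of -0.41 in untreated and 1.43 in sham mice, Mrpl57 at -0.72 and 0.66, Mrps5 at -0.80 and 0.34, and Mrps30 at -3.77 and 0.73. In IPCs they were Mrpl41 at -0.33 and 1.91, Mrpl57 at -0.32 and 0.63, Mrps18b at -0.49 and 0.93, and Mrps27 at -0.28 and 0.57.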

How the results depend on the processing

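Of the called genes given with values, none changed sign under an alternative, and the members' LFPI, interaction and injury-experiment NSC over IPC counts stayed at 0 under each alternative run, except that leaving out whole DG mouse 10 called 1 of 77 members lower after LFPI, where the count over all 17446 genes went from 0 to 807 higher and 527 lower. The median of the interaction, 0.01, was -0.04 with the mouse as a block. The untreated comparisons with whole DG moved most with the scale. Normalized totals were 1.74e+07 to 1.76e+07 in untreated whole DG, 1.06e+07 to 1.09e+07 in NSCs and 1.05e+07 to 1.12e+07 in IPCs. Equal totals scale all genes of a library by 1 factor. Why the totals differed was not tested. For NSCs over whole DG, members higher and lower and their median log2 fold change were 60, 1 and 0.95 with equal library totals, 47, 2 and 0.75 with edgeR, 43, 2 and 0.62 with DESeq2, and 49, 2 and 0.95 with a CLEAR value in every library and equal totals, an alternative chosen after seeing the data. For IPCs over whole DG they were 53, 0 and 0.87, then 48, 1 and 0.65, then 43, 1 and 0.52, then 48, 1 and 0.94. A fold-change minimum of 1 (log2) left 2 members higher in NSCs, with 3 lower, so that falls outnumbered rises there, and 3 in IPCs, with 1 lower. Without the filter on low values 5 were lower in NSCs and 11 higher in IPCs, and without the trend 4 and 10. In IPCs the CLEAR filter gave a median of 0.24, and leaving out technical replicate 2 of mouse 2 gave 6 lower and a median of 0.22. In sham mice, equal totals gave medians of 1.09 in NSCs and 1.29 in IPCs, with 0 lower in IPCs, the combined alternative gave 1.09 and 1.29, also with 0 lower in IPCs, and the CLEAR filter and DESeq2 each called 1 lower in NSCs. For untreated NSCs over IPCs, DESeq2 called 1 higher and 2 lower. The fit with the mouse as a replicate block called 0 members in that comparison, in the injury experiment and in the interaction, as without the block, while it took the count over all genes in untreated NSCs over IPCs from 218 higher and 121 lower to 0 and 0.

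With each replicate left out in turn, NSCs over whole DG in untreated mice had 13 to 20 members higher, 3 to 6 lower and medians of 0.24 to 0.32, and IPCs 10 to 17, 1 to 4 and 0.15 to 0.20. In sham mice the ranges were 22 to 43, 0 to 2 and 0.76 to 0.87 for NSCs, and 36 to 51, 0 to 3 and 0.95 to 1.07 for IPCs. Medians ran from 0.0418 to 0.10 for untreated NSCs over IPCs and from -0.18 to -0.13 in the injury experiment, from 0.16 to 0.35 for LFPI in NSCs, 0.14 to 0.26 in IPCs and -0.07 to -0.01 in whole DG, and from -0.04 to 0.07 for the interaction. Where that left 1 sham NSC mouse, it is assumed to vary like the other samples. Of the results for single genes, 48 no longer passed under an alternative, 2 newly passed and 624 kept their call. The CLEAR filter could not be run for LFPI over sham in whole DG. With 2 or 3 mice a group, differences in single members after LFPI of the size seen, up to a log2 fold change of 1.70, did not pass with limma at the adjusted threshold.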
